A study of Homo sapiens with 8 samples.

Results

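Resistance to cisplatin was selected in an HPV+ and in an HPV- head and neck squamous cell carcinoma line, and the question here is where the 2 selections moved the transcriptome apart. For each gene the change from parental to resistant cells in the HPV+ line was compared with the same change in the HPV- line, written as (SCC35 minus SCC2) minus (SCC411 minus SCC89). A positive difference means that the gene moved more towards higher expression in the HPV+ line than in the HPV- line. All 8 libraries of the series entered, 8 of 8, with 2 in each of 4 groups, and 15221 genes were tested.

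The HPV- line was SCC89, with clone SCC411 as its resistant derivative, and the HPV+ line was SCC2, with clone SCC35. Both are established human carcinoma lines. Resistant cells were selected in stepwise cisplatin, at higher concentrations for the HPV+ line than for the HPV- line. The paper states that single cell clones, once picked, were kept in medium without cisplatin. From each line 1 such clone was sequenced. HPV status, the line, the cisplatin concentration and the clone picked therefore cannot be told apart in any difference given here. Whether the 2 libraries of each group derive from separate cultures is not stated, and the p-values cover only the spread between those libraries, which may be technical.

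Estimated counts, the reads that Salmon assigned to each transcript, summed to between 20250246 and 27341284 a library. Levels are CPM, which are counts divided by the TMM-scaled library total, always in the order of replicates 1 and 2 (HPV+ parental 1 is replicate 1 of that group), and are not corrected for gene length, so they compare libraries and not genes. Fold changes are on the log2 scale, and adjusted p-values are from edgeR's quasi-likelihood test with Benjamini-Hochberg adjustment over all genes tested. The standard error (SE) is approximate. It was derived as the absolute log2 value divided by the square root of that test's F statistic. All 14 squamous epithelial markers, among them TP63 and KRT5, were at 1 CPM or more in each group, and their sum was 25368 and more in the HPV- parental libraries against 6351 to 8157 CPM in the other 6. Of 9 leukocyte markers, AIF1, MS4A1 and TYROBP had 0 counts and PTPRC was at most 0.18 CPM, while LYZ was at 1.07 to 2.17 CPM. CD14 was at 7.26 and 3.92 and then 19.4 and 12.8 CPM in HPV- cells and at most 0.542 CPM in HPV+ cells. Of 10 fibroblast markers, COL3A1, LUM and DCN were high in HPV+ cells only, at 1358 to 3079 CPM for COL3A1, while PDGFRA and PDGFRB stayed at or below 0.302 CPM, and the part of these genes in the results was not tested.

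Cisplatin binds DNA and blocks replication and transcription, and cells that survive long exposure usually differ from their parents in many programs at once, including growth factor signaling, stress responses, adhesion and differentiation. High-risk HPV encodes E6 and E7, which inactivate p53 and the retinoblastoma protein and dampen interferon signaling, so that HPV+ and HPV- carcinomas start from different states. A gene can differ between the lines because it moved in opposite directions, because it moved in 1 line alone, or because it moved further in 1 line.

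A gene was called when the adjusted p was under 0.05 and the log2 value was beyond 1 in either direction. The change differed between the lines for 1787 genes, 11.7% of those tested. It was more positive in the HPV+ line for 787 genes (5.17%) and more negative for 1000 (6.57%). Within a line, 1718 genes (11.3%) changed in HPV- cells and 1218 (8%) in HPV+ cells. Of the 1787 genes, 138 (0.907% of all genes tested, the base of each percentage here) were called in both lines in opposite directions, with 64 that rose in HPV+ cells while falling in HPV- cells (0.42%) and 74 that did the reverse (0.486%). Another 403 (2.65%) changed in the HPV- line alone, 202 upwards (1.33%) and 201 downwards (1.32%), and 214 (1.41%) in the HPV+ line alone, 81 upwards (0.532%) and 133 downwards (0.874%), where alone means that the other line, with the gene at 1 CPM or more, moved by less than 0.5 on the log2 scale at an unadjusted p above 0.05. Only 27 genes (0.177%) moved the same way in both lines but further in 1 of them. In the remaining cases 1 line was called and the other lay in between (412 genes, 2.71%), the other line had less than 1 CPM (94 genes, 0.618%), or neither line was called by itself (499 genes, 3.28%).

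The opposite genes depended on the HPV+ parental libraries. There were 36 and 35 in the 2 directions without HPV+ parental 1, and 41 and 41 without replicate 2. The genes more negative in the HPV+ line numbered 588 without replicate 1. The 403 genes of the HPV- line were between 294 and 448 with a library left out, and the 214 of the HPV+ line fell to 136 without HPV+ parental 1.

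**Figure D1:**
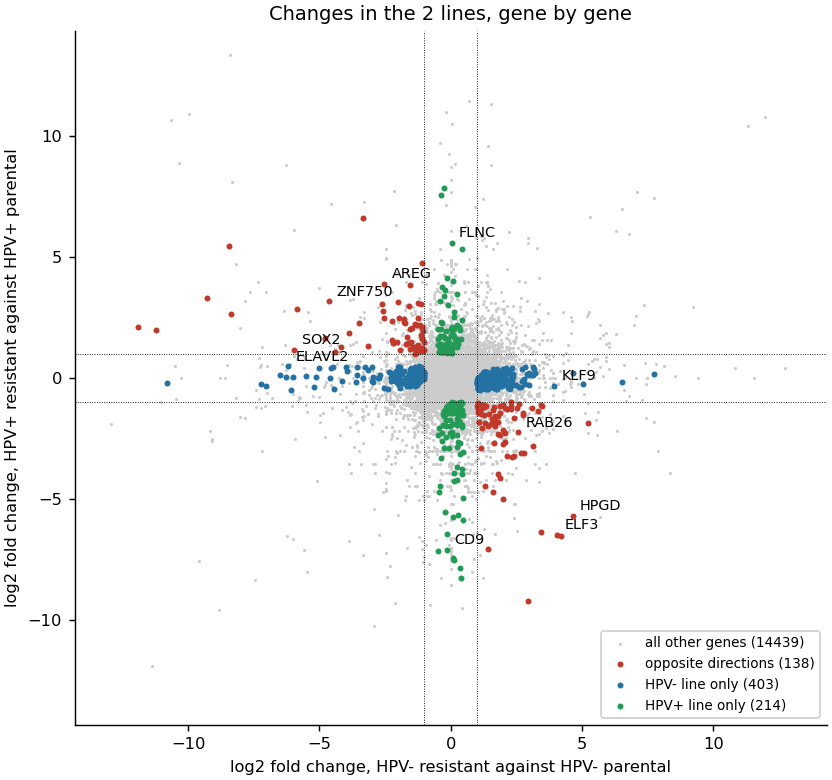
Each point is 1 tested gene outside the Y chromosome, with the log2 fold change of the HPV- line (resistant against parental) on the x axis and that of the HPV+ line on the y axis. Dotted lines mark log2 values of 1 and −1. Red points are the 138 genes that changed in opposite directions (upper left and lower right), blue points the 403 genes of the HPV- line alone and green points the 214 of the HPV+ line alone.

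Most of the 64 genes that rose in HPV+ and fell in HPV- cells started from a higher level in the HPV- parents, 55 against 9. For 42 of the 64 the distance between the lines was smaller after selection, and the median distance, as the log2 ratio of mean CPM with 0.1 added, went from 3.50 in parental to 2.15 in resistant cells. The 74 genes that went the other way were higher in the HPV+ parents in 52 cases, and their median distance was 1.80 before and 2.54 after, smaller for 30 of them. Over all genes tested the distance was smaller in 49.6%, with medians of 0.781 and 0.770. These counts share the parental libraries with the fold changes and carry no test.

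Among the 64 genes were 3 ligands of the EGF receptor, which drive growth and wound responses of squamous epithelium. Other ligands of this receptor are not described here. Of 56 tested genes of receptor tyrosine kinases and their ligands, 3 were opposite in this direction and 2 in the other. The shares over all genes tested were 0.42% and 0.486%. AREG, amphiregulin, was at 114 and 113 CPM in HPV- parental cells and at 20.04 and 19.3 in HPV- resistant cells. In HPV+ cells it was at 1.06 and 1.06 before and 14 and 17.8 after selection. The 2 resistant clones thus lay close together, coming from opposite ends, with no overlap of parental and resistant libraries in either line. The log2 fold changes were −2.53 (SE 0.16, adjusted p = 1.56e-05) in HPV- and 3.90 (SE 0.20, adjusted p = 1.02e-05) in HPV+ cells, a difference of 6.43 (SE 0.25, adjusted p = 8.61e-07). HBEGF went from 14.8 and 14.8 to 4.43 and 2.99 CPM in HPV- cells and from 2.91 and 3.17 to 18.8 and 35.4 in HPV+ cells, a difference of 5.15 (SE 0.45, adjusted p = 9.11e-05). TGFA went from 55.3 and 60.3 to 23.7 and 28.4 and from 2.08 and 2.38 to 5.23 and 4.46 CPM, a difference of 2.26 (SE 0.26, adjusted p = 0.000447). For all 3 ligands the libraries of a line did not overlap, and the higher HPV+ level belonged to the resistant clone.

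FST, follistatin, which binds and neutralizes activins, fell from 72.1 and 73.0 to 17.6 and 13.6 CPM in HPV- cells and rose from 31.2 and 38.2 to 193 and 159 in HPV+ cells. The difference was 4.56 (SE 0.26, adjusted p = 6.21e-06), and the HPV+ clone, not the HPV- parent, had the highest levels of all. CPA4, a secreted carboxypeptidase, went from 40.1 and 41.3 to 7.05 and 7.08 and from 0.629 and 0.642 to 4.24 and 2.94 CPM, a difference of 5.01 (SE 0.33, adjusted p = 1.81e-05). ZNF750, a transcription factor of epidermal differentiation, went from 6.57 and 8.43 to 0.302 and 0.299 in HPV- cells and from 0.236 and 0.755 to 4.60 and 4.42 CPM in HPV+ cells. Its difference of 7.78 (SE 0.71, adjusted p = 0.000115) was the largest among ZNF750, AREG, HBEGF, FST, CPA4 and UGT1A7, the 6 genes named in this direction by rule. The last of them, UGT1A7, makes a glucuronidating enzyme and shares exons with other UGT1A genes, so the split of reads between them is uncertain. It differed by 5.33 (SE 0.75, adjusted p = 0.00356).

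In the other direction, HPGD, the enzyme that inactivates prostaglandin E2, rose from 0.107 and 0.0451 to 2.87 and 1.10 CPM in HPV- cells and fell from 26.6 and 28.8 to 0.833 and 0.232 in HPV+ cells. The HPV+ parental libraries stood far above the other 6, and the difference was −10.35 (SE 0.95, adjusted p = 0.000222). ATOH8, a basic helix-loop-helix factor, went from 0.107 and 0.271 to 2.12 and 5.24 CPM in HPV- cells, against 8.14 and 7.36 and then 0.159 and 0 in the HPV+ line, a difference of −10.74 (SE 1.11, adjusted p = 0.000299). RAB26, a small GTPase of secretory vesicles, was at 6.46 and 3.65 and then 33.5 and 26.3 CPM in HPV- cells, and at 18.0 and 18.99 and then 4.12 and 3.76 in HPV+ cells. The order of the 2 lines was reversed between parental and resistant cells, with a difference of −4.80 (SE 0.38, adjusted p = 5.46e-05). CNRIP1, which binds the cannabinoid receptor, differed by −4.32 (SE 0.81, adjusted p = 0.00562), and DOCK10, an activator of small GTPases, by −5.63 (SE 1.03, adjusted p = 0.00493). The files list only 77.8% of DOCK10's transcripts, and its value was −3.59 (adjusted p = 0.287) with an offset for transcript length. The pseudogene HERC2P3 also qualified, with 0 counts in both HPV+ resistant libraries and 165 in the HPV+ parental ones, but near-identical copies make its reads uncertain.

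**Figure D2:**
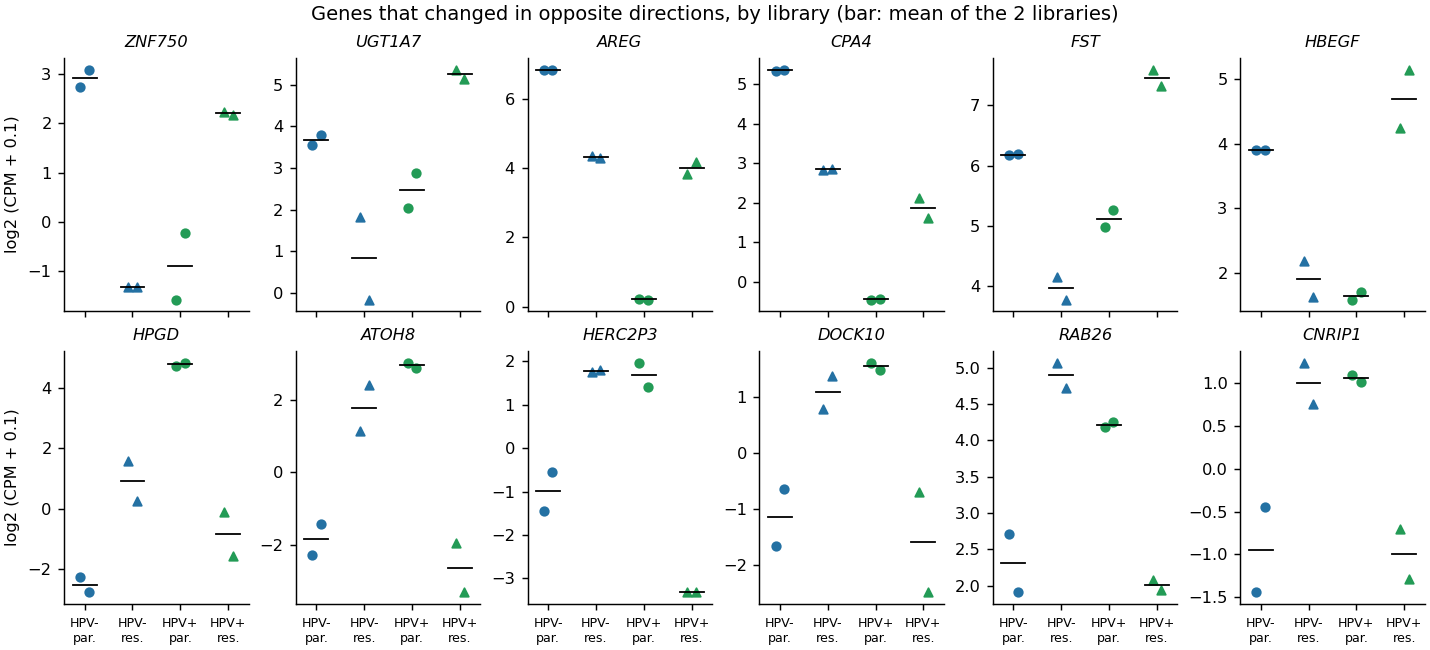
Each panel is 1 gene, the y axis is log2 of CPM with 0.1 added, and each symbol is 1 library (circles parental, triangles resistant, blue HPV-, green HPV+), with bars at the mean of the 2 libraries. The upper row fell in HPV- and rose in HPV+ cells, as AREG from 113 to 19.3 CPM against 1.06 to 17.8 in the libraries of replicate 2, and the lower row did the reverse.

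Regulators of epithelial identity were among the opposite genes as well. SOX2, a squamous lineage factor, was at 1.82 and 1.94 CPM in HPV- parental cells and at 0.0504 and 0 in HPV- resistant cells, and at 5.03 and 4.87 and then 10.7 and 11.7 in the HPV+ line, a difference of 7.12 (SE 0.69, adjusted p = 0.000164). ELF3, an ETS factor of differentiating epithelium, did the opposite, from 5.39 and 3.70 to 74.6 and 77.2 CPM in HPV- cells and from 0.393 and 0.566 to 0 in both resistant HPV+ libraries, at least 8.16-fold lower when the group is set to a floor of 3 counts. TP73, the p53 relative, rose from 10.1 and 11.4 to 51.8 and 55.6 and fell from 61.1 and 60.6 to 26.1 and 24.1 CPM, a difference of −3.59 (SE 0.20, adjusted p = 6.21e-06). In TP73 the HPV- clone ended close to the level of the HPV+ parent, and the order of the 2 lines was reversed. FOXA1, a factor that opens chromatin, went the same way as TP73, with a difference of −4.05 (SE 0.42, adjusted p = 0.000270). The cytokine receptor subunit IL20RB fell from 117 and 128 to 12.1 and 15.6 and rose from 50.6 and 55.4 to 127 and 134.8 CPM, a difference of 4.44 (SE 0.23, adjusted p = 5.05e-06).

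Gene lists of 43 pathways and families were then counted. Against the 5.17% of all genes that differed in the positive and 6.57% in the negative direction, and a median difference of −0.03 over all genes tested, interferon-stimulated genes, ribosome biogenesis and stress response genes lay to the positive side, and antigen presentation, cholesterol synthesis, histones and guidance genes to the negative side. The list of keratinization genes had the highest median, 0.98, with 37 of 103 genes more positive and 6 more negative, and is not described further. The lists were not tested as sets. Within a list, genes were named by the smallest p of the difference, and TGFA, SOX2, ELF3, TP73, FOXA1, IL20RB, ISG15, MX1, MX2, DDX60, IFI44L, IFIH1, IRF1, HLA-B, TRIB3, DDIT3, MET, ERBB3, AXL, IGFBP7, TGFBR2, TGFB2, CDH1, VIM, LAMA3, F3 and NDRG1 were named after their values were seen.

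**Figure D3:**
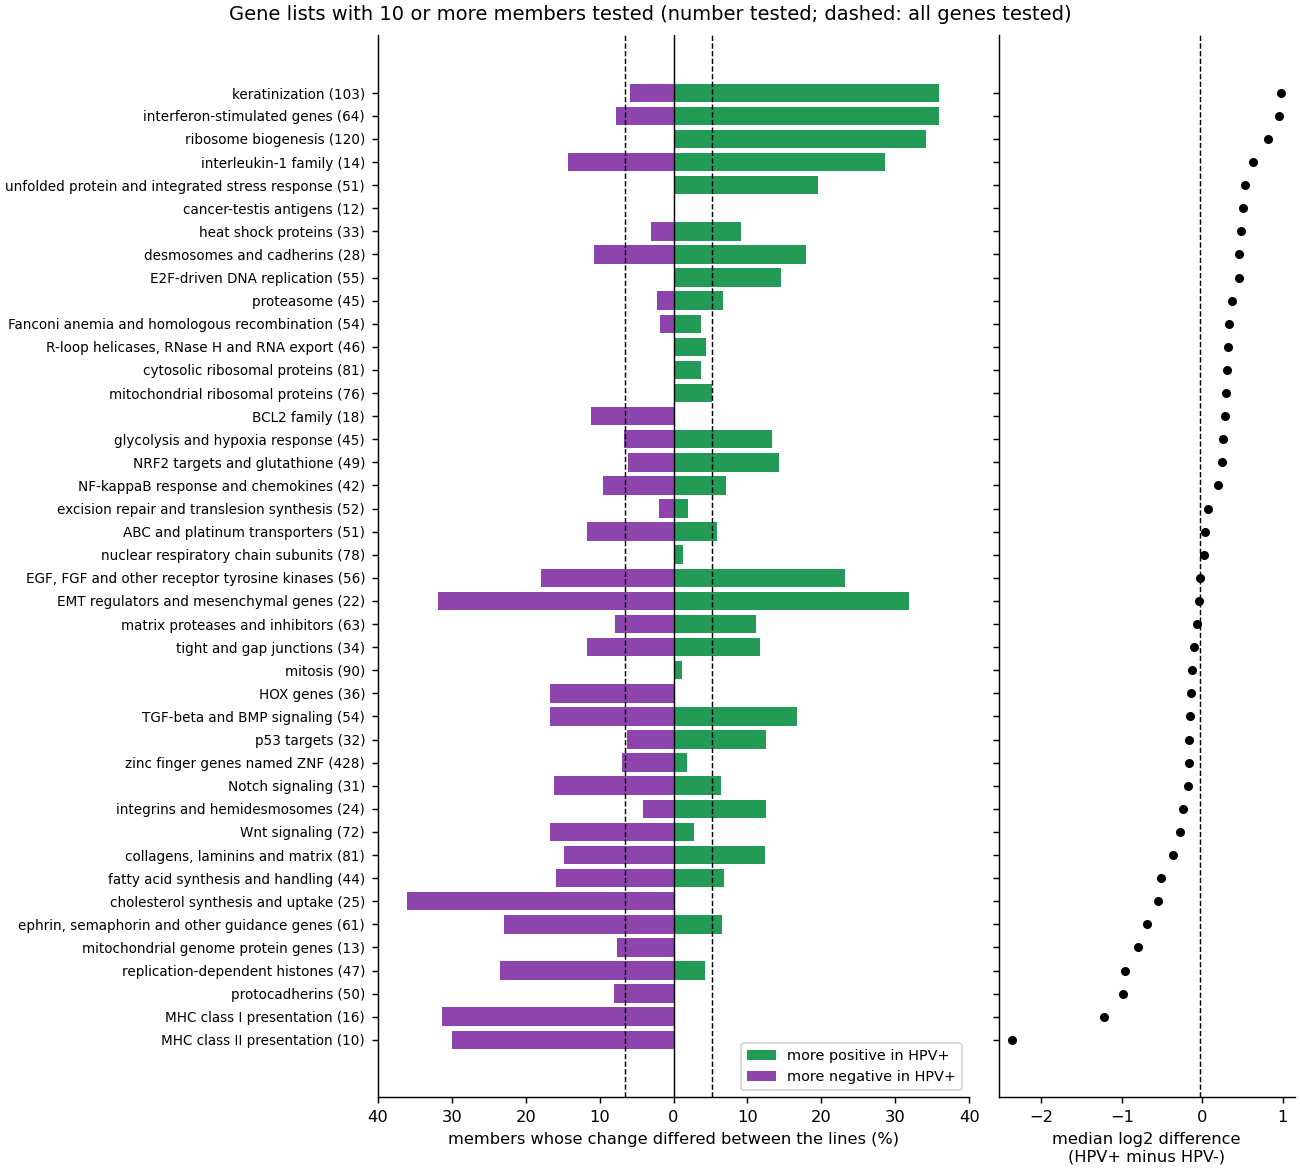
Bars give the percentage of tested members of each list with 10 or more of them whose change was more positive (green) or more negative (purple) in the HPV+ line, and points give the median log2 difference of the list. Dashed lines mark the 5.17%, the 6.57% and the median of −0.03 of all genes tested, and the lists run from MHC class II presentation at −2.36 to keratinization at 0.98.

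Interferon-stimulated genes encode antiviral effectors and sensors that are switched on by interferon through the interferon-stimulated response element of their promoters. Of 64 tested, 23 differed in the positive and 5 in the negative direction, with a median of 0.95. In HPV- cells 11 were called lower (background 5.22%) and 3 higher (6.06%), and in HPV+ cells 11 were called higher (3.4%) and 3 lower (4.6%). OASL, an antiviral relative of the oligoadenylate synthetases, went from 201 and 144 to 66.5 and 60.5 CPM in HPV- cells and from 10.2 and 10.0 to 24.8 and 24.6 in HPV+ cells. The lines approached each other without overlapping, and the difference was 2.73 (SE 0.24, adjusted p = 0.000105). RIGI, the cytosolic sensor of viral RNA, went from 118 and 169 to 57.0 and 61.2 and from 5.74 and 7.02 to 17.0 and 15 CPM, a difference of 2.60 (SE 0.27, adjusted p = 0.000267). ISG15, the ubiquitin-like modifier, went from 735 and 543 to 146 and 289 and from 53.5 and 57.9 to 139 and 113 CPM, a difference of 2.74 (SE 0.42, adjusted p = 0.00343). For these genes each HPV- library was above each HPV+ library, and the closest approach was between the resistant ISG15 libraries.

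MX2 was the fourth interferon-stimulated gene with opposite changes (3.47, SE 0.71, adjusted p = 0.0139), and its call was lost without HPV- parental 1 (adjusted p = 0.0562), without HPV- parental 2 (0.0579) and without HPV+ parental 2 (0.0656). MX1, the GTPase that blocks influenza virus, rose from 15.1 and 16.5 to 112 and 66.3 CPM in HPV+ cells, while in HPV- cells it went from 384 and 410.3 to 197 and 264 and missed the fold threshold (−0.78, SE 0.23, adjusted p = 0.0325). DDX60, a helicase cofactor of RIGI, rose from 7.62 and 8.65 to 32.4 and 21.0 CPM in HPV+ cells, with a difference of 2.49 (SE 0.30, adjusted p = 0.000620). Not every member took part, for IFI44L differed by 0.29 (SE 0.41, adjusted p = 0.697) and IFIH1, with 87.5% of its transcripts listed, by −0.68 (SE 0.29, adjusted p = 0.143). The interferon-stimulated genes on the negative side included LGALS3BP, a secreted glycoprotein, at 442 and 459 and then 766 and 1040.1 CPM in HPV- cells and 7.07 and 7.74 and then 4.68 and 3.41 in HPV+ cells, a difference of −1.88 (SE 0.28, adjusted p = 0.00191). GBP4, a guanylate-binding GTPase, differed by −2.39 (SE 0.39, adjusted p = 0.00294), and IRF1, a transcription factor of interferon-γ responses, by −1.06 (SE 0.20, adjusted p = 0.00568). Without HPV+ parental 1 the counts were 21 and 3, and IRF1 was no longer called, at −0.95 (adjusted p = 0.0469). The highest count in the positive direction with a library left out was 27.

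To show the element that many of these genes carry, the 250 bases before the RefSeq start are printed for 4 members on the positive side (ISG15, IFIT1, DDX60 and SAMD9) and for LGALS3BP on the negative side, 5′ to 3′ on the strand of the gene, on GRCh38.p14. Capitals mark 2 copies of GAAA separated by any 2 bases, on either strand. ISG15 lies at chr1:1013247-1013496 (plus strand), IFIT1 at chr10:89392373-89392622 (plus), DDX60 at chr4:168318753-168319002 (minus), SAMD9 at chr7:93117980-93118229 (minus) and LGALS3BP at chr17:78979924-78980173 (minus).
ISG15: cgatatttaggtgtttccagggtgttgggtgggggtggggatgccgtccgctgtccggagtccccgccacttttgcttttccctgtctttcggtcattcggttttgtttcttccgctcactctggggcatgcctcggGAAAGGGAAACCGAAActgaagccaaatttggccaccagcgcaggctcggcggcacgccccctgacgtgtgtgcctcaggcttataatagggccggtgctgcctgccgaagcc
IFIT1: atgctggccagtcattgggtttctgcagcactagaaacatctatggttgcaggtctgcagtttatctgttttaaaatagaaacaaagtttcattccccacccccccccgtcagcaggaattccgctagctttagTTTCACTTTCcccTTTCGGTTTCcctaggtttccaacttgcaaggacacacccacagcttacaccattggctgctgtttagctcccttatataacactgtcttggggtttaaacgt
DDX60: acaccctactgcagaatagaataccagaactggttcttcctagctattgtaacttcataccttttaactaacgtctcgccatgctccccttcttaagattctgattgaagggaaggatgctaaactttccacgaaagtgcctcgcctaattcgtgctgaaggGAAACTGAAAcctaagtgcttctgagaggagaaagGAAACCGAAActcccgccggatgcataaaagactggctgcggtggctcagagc
SAMD9: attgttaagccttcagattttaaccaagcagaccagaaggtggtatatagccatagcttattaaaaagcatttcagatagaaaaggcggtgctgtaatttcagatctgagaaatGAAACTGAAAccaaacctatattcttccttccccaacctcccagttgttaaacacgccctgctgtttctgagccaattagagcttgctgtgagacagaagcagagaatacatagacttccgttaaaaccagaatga
LGALS3BP: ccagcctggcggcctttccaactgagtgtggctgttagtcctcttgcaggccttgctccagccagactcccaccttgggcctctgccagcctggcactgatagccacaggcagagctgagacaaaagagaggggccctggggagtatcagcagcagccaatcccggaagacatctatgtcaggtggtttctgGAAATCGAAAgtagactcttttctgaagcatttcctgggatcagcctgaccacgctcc
In ISG15 2 matches overlap, starting 113 and 107 bases before the start of the gene, and in IFIT1 both matches are on the opposite strand. RefSeq promoters were found for 49 of the 64 members, and 26 of them (53.1%) held the element, against 839 of 27305 promoters of the same length (3.07%). The element was present in 10 of 18 promoters of members on the positive side and in 2 of 4 on the negative side. A match is a description of the letters and not evidence of binding.

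Antigen presentation went the other way from the antiviral effectors. MHC class I loads peptides through TAP, tapasin and the trimming protease ERAP1, and class II genes are switched on by CIITA. Of 16 class I genes tested, 5 were more negative in the HPV+ line and 0 more positive (0 also at an unadjusted p under 0.05 and by DESeq2), with a median of −1.22. Of 10 class II genes, 3 were more negative and 0 more positive (0 and 0 likewise), with a median of −2.36. TAPBPL, which edits the class I peptide repertoire, fell from 6.92 and 6.31 to 1.74 and 0.891 CPM in HPV+ cells and went from 55.7 and 36.8 to 71.2 and 82.0 in HPV- cells, a difference of −3.05 (SE 0.40, adjusted p = 0.00105). ERAP1 rose from 29.3 and 34.0 to 75.4 and 92.4 CPM in HPV- cells and was at 17.0 and 18.6 and then 17.6 and 15.9 in HPV+ cells, a difference of −1.49 (SE 0.23, adjusted p = 0.00201). CIITA rose from 1.98 and 2.43 to 20.6 and 19.4 CPM in HPV- cells and was at 1.77 and 2.45 and then 3.49 and 2.01 in HPV+ cells, where only replicate 1 of the resistant clone lay above the parental libraries. Its difference was −2.80 (SE 0.45, adjusted p = 0.00271), with 90.0% of its transcripts listed. HLA-DQB1 was near the detection limit in the HPV+ line, at 1.69 and 1.13 and then 0 and 0.0387 CPM, and differed by −6.51 (SE 0.84, adjusted p = 0.000894). HLA-B rose in HPV- cells, from 7.64 and 7.21 to 40.9 and 31.4 CPM, but was below 1 CPM in HPV+ cells, and the files list only 53.8% of its transcripts. CD14, one of the leukocyte markers, rose by 1.53 (SE 0.38, adjusted p = 0.0145) in HPV- cells beside these genes, where the 9 markers summed to 6.04 and 8.81 CPM in parental and 14.4 and 20.9 CPM in resistant libraries, against 1.59 to 2.87 CPM in HPV+ cells, and their part in the result was not tested. HLA genes are highly polymorphic and resemble each other, so their counts are uncertain.

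**Figure D4:**
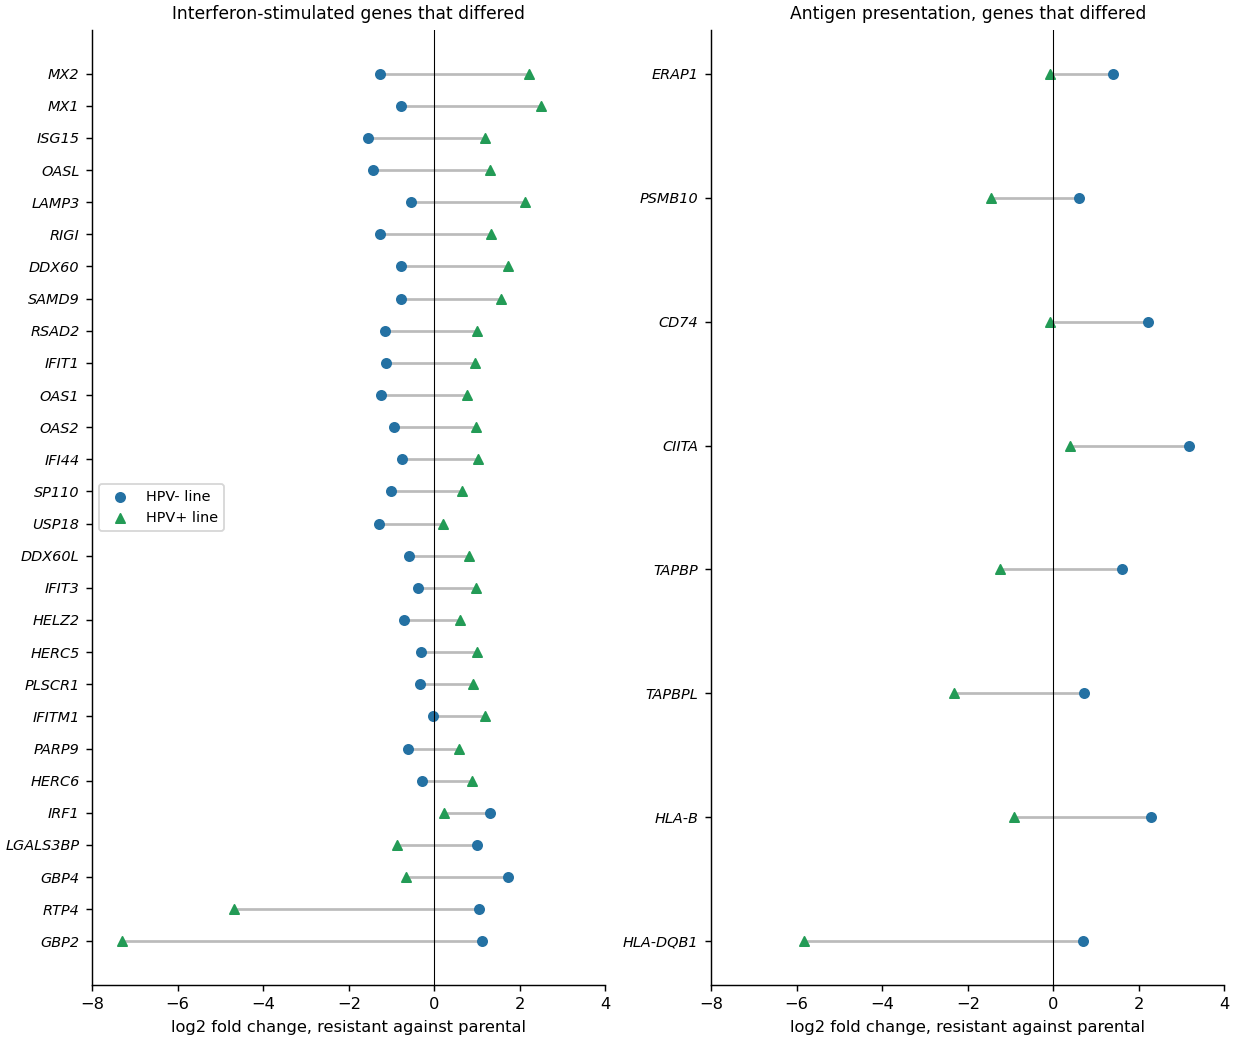
Log2 fold changes (resistant against parental) are drawn for the genes whose change differed between the lines, with blue circles for the HPV- and green triangles for the HPV+ line and a gray bar joining them. On the left, 23 of 28 interferon-stimulated genes have the green symbol to the right of the blue one. On the right, all 8 antigen presentation genes have it to the left.

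The integrated stress response reduces translation through phosphorylated eIF2α and induces ATF4 and its targets, and the unfolded protein response adds chaperones of the endoplasmic reticulum. Of 51 genes tested, 10 were more positive in the HPV+ line and 0 more negative (1 at an unadjusted p under 0.05 and 1 by DESeq2), with a median of 0.54. In HPV+ cells 9 rose and 0 fell (0 at an unadjusted p under 0.05 and 0 by DESeq2), and in HPV- cells 5 fell and 0 rose (2 and 0). ATF3, a stress-induced repressor, was at 4.33 and 2.93 CPM in HPV- parental cells and at 1.21 and 0.897 in HPV- resistant cells, and went from 18.9 and 17.7 to 89.5 and 106 in HPV+ cells. The HPV+ clone stood apart from the other 6 libraries, and the difference was 4.19 (SE 0.33, adjusted p = 5.56e-05). PPP1R15A, the phosphatase subunit that ends the response, went from 156 and 129 to 52.9 and 57.1 and from 86.3 and 85.4 to 167 and 228 CPM, a difference of 2.57 (SE 0.25, adjusted p = 0.000164), with 40% of its transcripts listed. TRIB3, an ATF4 target, rose from 229 and 268 to 612 and 667 CPM in HPV+ cells and was at 105 and 94.2 and then 53.6 and 86.0 in HPV- cells, a difference of 1.88 (SE 0.29, adjusted p = 0.00240). DDIT3, which encodes CHOP, missed the fold threshold at 0.96 (SE 0.27, adjusted p = 0.0382), and it was called without HPV- parental 2 (1.26, adjusted p = 0.00353) and without HPV- resistant 2 (1.14, adjusted p = 0.0434). The counts were 18 and 0 without HPV- resistant 2, and 11 and 1 without HPV- parental 1.

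Sterol and fatty acid genes are driven by the SREBP factors when membranes lack cholesterol. Of 25 cholesterol genes tested, 9 were more negative in the HPV+ line and 0 more positive (0 at an unadjusted p under 0.05 and 0 by DESeq2), with a median of −0.55. The count was 5 without HPV+ parental 1 and 5 without HPV+ resistant 1. TM7SF2, a sterol reductase, rose from 7.05 and 6.09 to 23.3 and 17.3 CPM in HPV- and fell from 9.12 and 7.97 to 3.69 and 3.14 in HPV+ cells, a difference of −2.95 (SE 0.33, adjusted p = 0.000389). Among 44 fatty acid genes 3 were more positive and 7 more negative. SREBF1 rose from 283 and 272 to 547 and 652 CPM in HPV- cells and differed by −1.58 (SE 0.22, adjusted p = 0.00138), and ELOVL5, a fatty acid elongase, differed by −1.60 (SE 0.22, adjusted p = 0.00118). FABP5, the fatty acid binding protein of keratinocytes, ran against them, falling from 193 and 172 to 32.7 and 42.4 CPM in HPV- cells and differing by 2.68 (SE 0.22, adjusted p = 7.65e-05).

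Receptors and their pathways split in both directions. Of 56 genes of receptor tyrosine kinases and their ligands, 13 were more positive and 10 more negative, the latter 6 without HPV+ parental 2 and 6 without HPV+ resistant 2. MET, the receptor of hepatocyte growth factor, rose from 64.3 and 75.8 to 207 and 215 CPM in HPV+ cells and was at 262 and 366 and then 285 and 297 in HPV- cells, a difference of 1.70 (SE 0.25, adjusted p = 0.00152). ERBB3 rose from 5.42 and 5.70 to 23.7 and 24.5 CPM in HPV+ cells and AXL from 1.10 and 0.566 to 9.79 and 6.82, with differences of 2.05 (SE 0.24, adjusted p = 0.000520) and 3.94 (SE 0.57, adjusted p = 0.00328). In each case the HPV+ clone moved towards the level of the HPV- libraries, which were higher throughout. FGFR3 fell in HPV+ cells, from 233 and 200.4 to 68.9 and 55.5 CPM, a difference of −2.28 (SE 0.28, adjusted p = 0.000608). NGFR, the low-affinity neurotrophin receptor, and IGFBP7, which binds insulin-like growth factors, were opposite genes that fell in HPV+ and rose in HPV- cells, with differences of −4.05 (SE 0.48, adjusted p = 0.000828) and −4.71 (SE 0.64, adjusted p = 0.00157).

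Of 54 genes of the TGF-β and BMP pathways, 9 differed in each direction. TGFBR2, the ligand-binding TGF-β receptor, rose in HPV+ cells from 1.69 and 2.08 to 21.5 and 20.03 CPM and was at 43.4 and 55.99 and then 68.9 and 49.8 in HPV- cells, a difference of 3.20 (SE 0.30, adjusted p = 0.000151). TGFB2, one of its ligands, rose in HPV+ cells as well, from 28.3 and 30.6 to 101 and 132 CPM. PMEPA1, which is induced by TGF-β and restrains it, was an opposite gene, at 55.0 and 66.8 and then 20.8 and 34.8 CPM in HPV- and 6.84 and 5.10 and then 49.9 and 49.98 in HPV+ cells, a difference of 4.20 (SE 0.35, adjusted p = 8.41e-05). BMP7 fell in HPV+ cells from 192 and 183 to 56.8 and 55.2 CPM, a difference of −2.12 (SE 0.18, adjusted p = 9.11e-05). TGFB2, TGFBR2 and PMEPA1 thus lay on the positive side and BMP7 on the negative side. LTBP3, a latent TGF-β binding protein, was also on the negative side, from −2.47 to −1.78 over the alternatives. Genes of TGF-β signaling therefore lay on both sides.

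Most members of the Wnt, Notch, guidance and HOX lists, which hold genes of development, were not called. Of 72 Wnt genes 2 were more positive and 12 more negative (7 more negative without HPV+ parental 1 and 8 without replicate 2). The 2 positive genes became 0 without HPV- parental 2, HPV- resistant 2, HPV+ parental 1 or HPV+ resistant 1, and 1 without HPV- resistant 1 or HPV+ parental 2. WNT4 rose from 6.09 and 3.65 to 18.1 and 16.3 CPM in HPV- and fell from 23.8 and 24.1 to 8.49 and 5.23 in HPV+ cells, a difference of −3.63 (SE 0.40, adjusted p = 0.000348), and WNT10A differed by −2.87 (SE 0.34, adjusted p = 0.000678). Of 31 Notch genes, 2 were more positive and 5 more negative. The Notch ligand DLL1 went from 37.8 and 43.5 to 92.2 and 89.6 and from 97.2 and 97.0 to 39.4 and 51.3 CPM, with 50% of its transcripts listed, while the Notch target NRARP went the other way, with a difference of 2.77 (SE 0.37, adjusted p = 0.00113). Among 61 ephrin, semaphorin and other guidance genes 4 were more positive and 14 more negative, with a median of −0.69. That count was 6 without either HPV+ parental library, 8 and 9 without HPV+ resistant 2 and 1, and 9 without HPV- resistant 1. NRP1, a coreceptor of semaphorins and VEGF, fell from 472 and 519 to 175 and 129 CPM in HPV+ cells, a difference of −2.15 (SE 0.27, adjusted p = 0.000689). EPHA2 was lower in the HPV- clone alone, from 215 and 196 to 60.5 and 66.1 CPM against 334 and 293 and then 295 and 325 in HPV+ cells, a difference of 1.68 (SE 0.20, adjusted p = 0.000550). Of 36 HOX genes 6 were more negative and 0 more positive (2 at an unadjusted p under 0.05 and 0 by DESeq2, and the 6 became 2 without HPV+ parental 2 and 3 without replicate 1), among them HOXA7 (−2.45, SE 0.45, adjusted p = 0.00498).

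The epithelial to mesenchymal list had 7 of 22 genes on each side (3 more negative without HPV+ parental 1). In HPV+ cells ESRP1, a splicing regulator of epithelium, rose from 0.472 and 0.566 to 4.68 and 9.42 CPM, while HPV- libraries ranged from 122 to 183 CPM, a difference of 4.09 (SE 0.47, adjusted p = 0.000603). CDH1, E-cadherin, rose in both clones but further in HPV+ cells, from 87.8 and 108 to 174 and 221 and from 39.3 and 43.9 to 186 and 189.8 CPM, a difference of 1.17 (SE 0.23, adjusted p = 0.00753). VIM, vimentin, fell from 265 and 320.4 to 67.4 and 40.3 CPM in HPV+ cells and was under 1 CPM in all HPV- libraries. Its difference of −2.94 (SE 0.67, adjusted p = 0.0154) was not called without HPV- parental 1 (adjusted p = 0.0763), without HPV- resistant 1 (0.0609) or without HPV- resistant 2 (0.0923). CDH2, N-cadherin, rose in HPV- cells from 2.19 and 2.93 to 25.2 and 14.9 CPM, while in HPV+ cells it was at 425 and 469 and then 283 and 288, a difference of −3.60 (SE 0.34, adjusted p = 0.000162). SNAI2, a repressor of E-cadherin, rose in HPV+ cells from 49.2 and 46.6 to 105 and 116 CPM, a difference of 2.13 (SE 0.20, adjusted p = 0.000162). Over the same HPV+ libraries the fibroblast-associated genes LUM and DCN fell, from 241 and 290 to 91.0 and 65.8 CPM and from 99.4 and 119 to 43.6 and 20.03 CPM. Other fibroblast markers did not follow in both resistant libraries. COL3A1 was at 2718 and 2974 and then 3079 and 1358 CPM, and COL1A1 at 6.52 and 5.85 and then 5.15 and 6.70. The part of these markers in the changes of the list was not tested.

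Matrix genes differed in both directions, 10 of 81 more positive and 12 more negative. LAMA3, a laminin chain of epithelial basement membranes, differed by 2.44 (SE 0.47, adjusted p = 0.0113) and was not called without HPV- parental 2 (2.26, adjusted p = 0.0735). PLAUR, the urokinase receptor, went from 19.6 and 18.8 to 5.79 and 7.33 and from 2.67 and 2.34 to 9.08 and 11.04 CPM, a difference of 3.55 (SE 0.32, adjusted p = 0.000112). F3, tissue factor, which starts coagulation, differed by 4.43 (SE 0.29, adjusted p = 1.81e-05). NDRG1 and BNIP3, both induced by hypoxia, were opposite genes in the same direction, with differences of 2.99 (SE 0.45, adjusted p = 0.00357), with 98.4% of its transcripts listed, and 2.19 (SE 0.29, adjusted p = 0.000949).

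Of the genes that moved in the HPV- line alone, ELAVL2, a neuronal-type RNA-binding protein, fell from 9.51 and 13.1 to 0.302 and 0 CPM and was at 12.1 and 14.2 and then 17.1 and 19.7 in HPV+ cells. RHOV, a small GTPase, fell from 6.04 and 5.09 to 0.101 and 0.349 CPM, and PLCB1, a phospholipase C, from 6.36 and 8.16 to 0 and 0.399. The differences were 6.67 (SE 0.68, adjusted p = 0.000299) for ELAVL2 and 4.61 (SE 0.70, adjusted p = 0.00203) for RHOV. For PLCB1 it was 5.17 (SE 0.83, adjusted p = 0.00449), and 3.39 (adjusted p = 0.12) with an offset for transcript length. KLF9, a Krüppel-like factor, rose from 0.160 and 0.0451 to 1.86 and 1.346 CPM and NECTIN3, an adhesion molecule, from 0.267 and 0.316 to 2.97 and 2.54, both to levels still below the HPV+ libraries. DACH1 had 0 counts in both HPV- parental libraries and 46 in the resistant ones, at least 15.8-fold higher by the same floor, with 50% of its transcripts listed. Just outside this class, because HPV+ cells moved slightly as well, IL18, an inflammasome cytokine, was nearly lost from HPV- cells, from 37.0 and 34.2 to 0.201 and 0.349 CPM, while HPV+ cells had 25.5 and 26.7 and then 19.7 and 14.1, a difference of 6.36 (SE 0.37, adjusted p = 7.85e-06).

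In the HPV+ line alone, CD9, a tetraspanin of the cell surface, was nearly lost, from 48.3 and 49.4 to 0.238 and 0.465 CPM, while HPV- libraries ranged from 233 to 266 CPM, a difference of −6.97 (SE 0.28, adjusted p = 8.61e-07). FLNC, an actin crosslinker, rose from 0.0786 and 0.113 to 3.61 and 6.12 CPM, and AP1M2, the epithelial clathrin adaptor subunit, from 0.550 and 0.755 to 9.48 and 11.7. FLNC and AP1M2 differed by 5.54 (SE 0.58, adjusted p = 0.000270) and 3.90 (SE 0.30, adjusted p = 4.83e-05). PRAG1, a pseudokinase, had 0 counts in the HPV+ parental libraries and 63 in the resistant ones, at least 21.4-fold higher, and SPAG16, a protein of the cilium axoneme, had 0 in the resistant and 85 in the parental libraries, at least 27.99-fold lower. MT2A, a metallothionein, which binds metals and platinum, fell from 217 and 269 to 46.7 and 31.3 CPM and was at 271 and 349.5 and then 344 and 402 in HPV- cells, a difference of −2.90 (SE 0.31, adjusted p = 0.000290). Also just outside the class, CASP1, the caspase that matures IL-1β and IL-18, rose from 0.118 and 0.264 to 18.8 and 11.9 CPM in HPV+ cells and was at 9.45 and 10.5 and then 14.3 and 16 in HPV- cells, a difference of 5.68 (SE 0.48, adjusted p = 8.12e-05), with 59.1% of its transcripts listed.

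Lists of growth genes were counted within each line as well. Over all genes tested, 5.22% were called lower and 6.06% higher in HPV- cells, and 4.6% lower and 3.4% higher in HPV+ cells. Ribosome biogenesis factors process ribosomal RNA and assemble the subunits, and 41 of 120 were more positive in the HPV+ line and 0 more negative (1 at an unadjusted p under 0.05 and 0 by DESeq2), with a median of 0.82. In HPV- cells 29 of the 120 fell and 0 rose (0 at an unadjusted p under 0.05 and 0 by DESeq2), and in HPV+ cells 0 passed in either direction (17 positive and 9 negative at an unadjusted p under 0.05, and 1 higher and 0 lower by DESeq2). By role, 18 of 49 small subunit factors, 17 of 48 large subunit factors and 6 of 23 snoRNP and RNA polymerase I genes were more positive. GNL3, nucleostemin, fell from 142 and 107 to 59.3 and 56.6 CPM in HPV- cells and went from 104 and 112 to 170.3 and 174 in HPV+ cells, a difference of 1.78 (SE 0.22, adjusted p = 0.000745). With each library left out in turn the count ran from 33 to 49, but only 3 genes passed a test against a log2 difference of 1. Among 55 replication genes of the E2F program 8 were more positive and 0 more negative (0 and 0), among them MCM10 (1.47, SE 0.24, adjusted p = 0.00288). Of 90 mitotic genes, 3 fell in HPV- and 11 in HPV+ cells, and the change differed for 1 in the positive direction and 0 in the negative (7 at an unadjusted p under 0.05 and 0 by DESeq2). Of 78 nuclear genes of the respiratory chain, 16 fell in HPV- and 11 in HPV+ cells, and 1 differed in the positive direction and 0 in the negative (7 at an unadjusted p under 0.05 and 0 by DESeq2). The mitotic gene was lost without HPV- parental 1, either HPV+ parental library or either HPV+ resistant library, and the counts were 0 and 2 without HPV- resistant 1. For the respiratory chain they were 1 and 3 without HPV- parental 1, 5 and 0 without replicate 2, 1 and 1 without HPV- resistant 1, and 0 and 0 without HPV+ parental 2 or HPV+ resistant 1. Replication-dependent histone genes were counted from poly(A) libraries, and how fully such libraries capture their transcripts was not tested. Of 47 of these genes, 3 rose and 11 fell in HPV- cells. In HPV+ cells 16 fell and 0 rose (0 at an unadjusted p under 0.05 and 0 by DESeq2). The change was more positive in the HPV+ line for 2 and more negative for 11. The negative count was 4 without HPV+ parental 2, 5 without HPV+ parental 1, 5 without HPV- resistant 1 and 6 without HPV- parental 2, and the positive count was 1 without HPV- parental 1, HPV- resistant 1, either HPV+ parental library or HPV+ resistant 2.

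Few genes of DNA repair were called. Of 54 Fanconi anemia and homologous recombination genes 2 were more positive and 1 more negative, and of 52 excision repair and translesion genes 1 in each direction, below the 5.17% and 6.57% of all genes. At an unadjusted p under 0.05, however, 20 of the 54 were positive and 5 negative, against 2299 and 2446 of all 15221 genes tested, and their median difference was 0.33. Each of the 8 libraries moved 1 of the first pair of counts by more than 1.5 times when left out, up to 6 and 1 without HPV- parental 2, and the second pair was 3 and 2 without HPV- parental 1, 3 and 1 without replicate 2, 2 and 1 without HPV- resistant 2, and 1 and 0 without either HPV+ parental library. Of 46 genes that act on R-loops, the RNA-DNA hybrids that form during transcription, 2 were more positive and 0 more negative (15 and 0 at an unadjusted p under 0.05, and 2 and 0 by DESeq2), with a median difference of 0.32. They were PRMT5, an arginine methyltransferase (1.05, SE 0.21, adjusted p = 0.00804), and DDX21, a nucleolar helicase (1.57, SE 0.27, adjusted p = 0.00373), of which only 16.7% of transcripts are listed. The counts were 1 and 1 without HPV- parental 1, 4 and 0 without HPV- parental 2, 3 and 1 without HPV- resistant 2, and 1 and 0 without HPV+ resistant 1. PRMT5 was not called without HPV- parental 1 (0.89), HPV+ parental 2 (0.99) or HPV+ resistant 1 (0.98). USP11, a deubiquitinase, differed by 0.05 (SE 0.21, adjusted p = 0.921). CNGB1, a cyclic nucleotide-gated channel subunit, rose from 0.214 and 0.406 to 30.3 and 21.4 CPM in HPV- cells and had 1 count in all over the 4 HPV+ libraries, which is too few for an HPV+ fold. Its fitted difference (−8.51, SE 2.50, adjusted p = 0.0462) was not called without any 1 of 6 libraries (adjusted p from 0.0506 to 1), with the replicate block (−8.50, adjusted p = 0.0709) or with upper-quartile factors (−8.61, adjusted p = 0.0510).

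Some of the differing genes were neighbors. Windows of 30 consecutive tested genes with a median difference beyond 0.8 in either direction merged into 15 stretches. They held 784 tested genes (5.15%), 174 of the 1787 differing genes (9.74%) and 10 of the 138 opposite genes (7.25%). The stretch with the most genes was at the end of chromosome 16, chr16:29336-3680143 (GRCh38, GENCODE release 44), with 135 genes, of which 33 were more negative and 0 more positive, and a median of −0.91. In it 24 genes fell in HPV+ cells and 13 rose in HPV- cells. It contains the opposite genes RAB26 and ABCA3. On chromosome 12, chr12:55716036-57547224 held 67 genes, with 18 more positive and 1 more negative, and 25 that fell in HPV- cells. A stretch of 100 genes on chromosome 8, which contains ESRP1, had 34 more positive and 2 more negative, with 27 that fell in HPV- cells. On chromosome 3, chr3:78597239-108694840 had 14 of 53 more positive. Of 3 stretches of chromosome 7, the one at chr7:22812628-30634033 had 13 of 55 more negative and 1 more positive. It contains HOXA7, so its count and that of the HOX list share genes. The protocadherin cluster, chr5:140691430-142154440, had 4 of 52 more negative and 0 more positive, and overlapping transcripts make the split of reads among these genes uncertain. Other genes of the report lay in stretches as well, among them RIGI, ELAVL2, CASP1 and FABP5. RIGI and ELAVL2 lay in chr9:19049427-34049388, where 7 of 47 genes were more positive and 13 fell in HPV- cells. CASP1 lay in chr11:102396332-110296712, where 8 of 32 were more positive, 5 rose in HPV+ cells and 4 fell in HPV- cells. FABP5 lay in the stretch of chromosome 8. Copy number was not measured, and its part in these stretches was not tested.

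**Figure D5:**
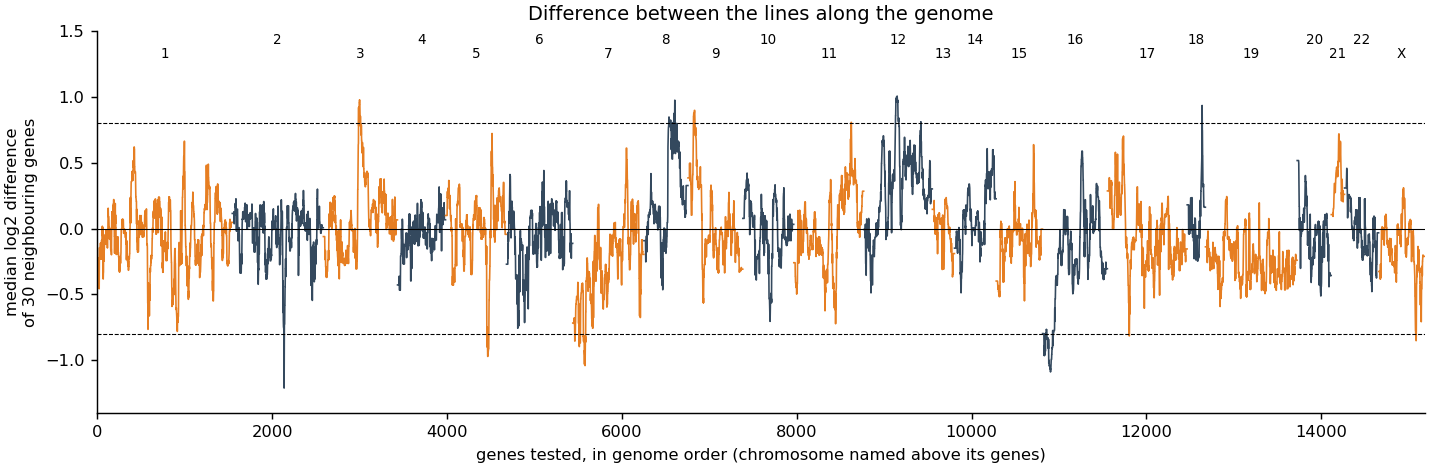
The y axis is the median log2 difference (HPV+ minus HPV-) of each gene and its neighbors in windows of 30 tested genes, and the x axis is the order of the genes along the genome, with alternating colors for chromosomes. Dashed lines mark 0.8 and −0.8, which are crossed on chromosome 16 downwards and on chromosomes 3, 8, 9 and 12 upwards, among others.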

How the data were processed

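Poly(A) RNA of 8 libraries was sequenced in 4 groups of 2. The authors quantified reads against GRCh38 with Salmon and deposited, per transcript, the estimated count (NumReads), TPM and effective length. The version of Salmon is not given in the sources used here, nor is its annotation. The estimated counts were summed per gene through GENCODE release 44 (172550 of 187432 transcripts matched, 92.1%, with 4.33 to 5.13% of the counts left out) and rounded to whole numbers. The deposited TPM values were not tested, and the deposited effective lengths entered only the alternative with a length offset.

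Genes were filtered with filterByExpr, scaled by TMM and fitted with edgeR 4.0.16 (R 4.3.3, limma 3.58.1), using the robust quasi-likelihood test with 1 coefficient a group. Each contrast was adjusted over 15221 genes. Total counts were between 20250246 and 27341284 a library. The fit was checked on simulated data. Genes were named by size of change (opposite and line-restricted genes) or by p (lists), with USP11 and CNGB1 added. A floor of 3 counts over a group served where a group had 0 counts, and covers counting error only. The members and lists were chosen with earlier results of these data known. Promoters came from RefSeq (GRCh38.p14). A few genes that the rule names are not reported here. The alternatives were DESeq2 1.42.0, other scalings, filters and thresholds, a replicate block, and each library left out.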

Additional observations from a re-analysis of the deposited data

Results flagged for a closer look

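The difference between the lines was itself tested, as the interaction contrast, and 787 genes passed in the positive and 1000 in the negative direction. All values here are log2 differences, HPV+ minus HPV-, from that contrast. Genes that rose in HPV+ and fell in HPV- cells were ZNF750 at 7.78, AREG at 6.43, UGT1A7 at 5.33, HBEGF at 5.15, CPA4 at 5.01 and FST at 4.56. Genes that did the reverse were HERC2P3 at −12.13, ATOH8 at −10.74, HPGD at −10.35, DOCK10 at −5.63, RAB26 at −4.80 and CNRIP1 at −4.32. Genes that fell in the HPV- line alone were ELAVL2 at 6.67, PLCB1 at 5.17 and RHOV at 4.61, and genes that rose in it alone were DACH1 at −7.59, KLF9 at −4.27, NECTIN3 at −2.99 and CIITA at −2.80. Genes that rose in the HPV+ line alone were PRAG1 at 8.09, FLNC at 5.54, ESRP1 at 4.09 and AP1M2 at 3.90, and genes that fell in it alone were SPAG16 at −8.64, ENSG00000285982 at −8.19, CD9 at −6.97 and CCBE1 at −4.29. The files list 71.4% of the transcripts of CCBE1. HERC2P3, DACH1, PRAG1, SPAG16 and ENSG00000285982 had a group with 0 counts, so their fitted values depend on the prior count. Many other genes of the report passed the same test, with their values given there.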

How the results depend on the processing

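Each group holds 2 libraries and the residual degrees of freedom are 4, so single libraries weigh heavily. With no minimum fold, 1242 genes were more positive, 1942 rose and 2139 fell in HPV- cells, 1164 rose and 1595 fell in HPV+ cells, 143 and 206 were opposite, and 890 and 478 changed in the HPV- and HPV+ line alone. Tested against a log2 difference of 1, these were 231 more positive and 269 more negative, 160 and 170 in HPV- cells, 108 and 115 in HPV+ cells, 9 and 5 opposite, and 70 and 44 in 1 line alone, with 91 and 68 list members and 90 of 140 named genes. With 1 library left out, the genes more positive ran from 605 to 906 and more negative from 588 to 1110, those higher in HPV- cells from 613 to 988 and lower from 567 to 1114, those higher in HPV+ cells from 240 to 538 and lower from 326 to 750, the opposite genes from 36 to 66 and from 35 to 62, those of 1 line alone from 294 to 448 (HPV-) and from 136 to 251 (HPV+), list members from 201 to 278 and from 118 to 190, and named genes from 123 to 134. The lowest value was without HPV- resistant replicate 1 for genes higher in HPV- cells, and without HPV+ parental replicate 1 for genes more negative, higher or lower in HPV+ cells, opposite, of the HPV+ line alone, and negative list members. Where a group was left with 1 library, it was assumed to vary like the other groups. With a replicate block 738 genes were more positive and 926 more negative, and no count moved by over 1.5 times. Same-numbered libraries correlated from −0.07 to 0.14 in their deviations from the group means. With 2 libraries a group, these correlations cannot decide whether the numbers pair the samples. DESeq2 gave 888 and 1018. Among the 183 called genes named or described, no difference changed sign. The other called genes were not checked for this. The difference of USP11, not called, ran from −0.06 to 0.19, and the medians of some lists changed sign, among them desmosomes and cadherins (0.46, down to −0.29), NRF2 targets (0.24, down to −0.08), the nuclear respiratory chain (0.02, down to −0.17) and tight and gap junctions (−0.10, up to 0.40). Of 183 called genes named or described, 114 kept the call of the difference under every alternative. The class of a gene, such as opposite or 1 line alone, was less stable for some. It was kept under 8 of 17 alternatives for DOCK10, 10 of 17 for CNRIP1, 11 of 18 for UGT1A7 and ELAVL2, and 12 of 18 for SOX2. AREG, FST, HPGD, RAB26 and CD9 kept it under all 18.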

Other observations

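Genes of drug handling moved in both directions. Of 51 ABC and platinum transporters, 3 were more positive and 6 more negative in the HPV+ line (5 and 6 without HPV- resistant 2, 3 and 3 without HPV+ parental 1). SLC47A2, an efflux transporter of organic cations, went from 7.96 and 5.91 to 28.6 and 26.5 CPM in HPV- cells and from 129.5 and 119 to 65.8 and 49.9 in HPV+ cells, a difference of −3.09 (SE 0.26, adjusted p = 8.13e-05). The 2 lines approached each other from opposite sides without meeting. AKR1C3, a reductase of carbonyl compounds and an NRF2 target, went from 66.7 and 65.6 to 29.3 and 27.2 and from 6.01 and 4.53 to 33.4 and 25.3 CPM, a difference of 3.70 (SE 0.27, adjusted p = 3.59e-05), and the resistant clones ended at similar levels. Of 49 NRF2 and glutathione genes 7 were more positive and 3 more negative (10 and 1 without HPV- resistant 2, 6 and 1 without HPV+ parental 1, 7 and 1 without HPV+ parental 2). All 3 metallothionein calls among 6 genes were more negative, and 0 were positive (0 at an unadjusted p under 0.05 and 0 by DESeq2).

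CDKN1A, the p53 target that encodes p21, was named after its values were seen. It fell from 51.8 and 39.5 to 11.99 and 18.6 CPM in HPV- cells and was at 222 and 221 and then 224 and 265 in HPV+ cells, a difference of 1.72 (SE 0.30, adjusted p = 0.00400). Of 32 p53 targets, 4 were more positive and 2 more negative (6 and 1 without HPV+ parental 1). Of 14 interleukin-1 family genes 4 and 2 differed (2 and 1 without HPV+ parental or HPV+ resistant 1, 4 and 1 without HPV+ resistant 2). Of 28 desmosome and cadherin genes 5 and 3 differed, and of 45 glycolysis and hypoxia genes 6 and 3.

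The remaining lists, as members more positive and more negative, are given beside the 5.17% and 6.57% of all genes, and 1 library often decided a count. Proteases and their inhibitors had 7 and 5 of 63 (8 and 3 without HPV- resistant 2, 6 and 3 and 4 and 4 without HPV+ parental 1 and 2). ZNF genes had 8 and 30 of 428 (13 and 33 without HPV- parental 1, 6 and 15 and 5 and 20 without HPV+ parental 1 and 2). Tight and gap junctions had 4 and 4 of 34, or 11.8% in each direction (1 negative without any 1 of HPV+ parental 1 and 2 and HPV+ resistant 2, and 2 without HPV- parental 1 or 2 or HPV+ resistant 1). NF-κB genes had 3 and 4 of 42 (0 negative without HPV+ parental 2, 1 without HPV+ parental 1, and 2 without HPV- parental 2, HPV+ resistant 1 or either HPV- resistant library). Integrins had 3 and 1 of 24 (5 and 2 and 3 and 2 without HPV- parental 1 and 2, 1 and 1 without HPV+ parental 2). Heat shock proteins had 3 and 1 of 33 (3 and 2 without HPV- parental 2, 2 and 3 without HPV- resistant 1, 2 and 2 without HPV+ resistant 1). Proteasome genes had 3 and 1 of 45 (6 and 1 without HPV- parental 2, 5 and 1 without HPV- resistant 2, 3 and 2 without HPV+ resistant 2).

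Cytosolic ribosomal proteins had 3 and 0 of 81 (2 negative at an unadjusted p under 0.05 and 0 by DESeq2), with 12 positive without HPV- parental 2 and 1 without HPV+ parental or HPV+ resistant 2. Mitochondrial ribosomal proteins had 4 and 0 of 76 (0 and 0), with 16 positive without HPV- parental 2, 9 without HPV- resistant 2, and 3 and 1 without HPV- parental 1. The 13 mitochondrial genome genes had 0 and 1 (0 positive at an unadjusted p under 0.05 and 0 by DESeq2), with 2 negative without HPV- parental 2, 3 without HPV- resistant 2 and 0 without HPV- resistant 1, HPV+ parental 1 or HPV+ resistant 2. BCL2 genes had 0 and 2 of 18 (5 positive at an unadjusted p under 0.05 and 0 by DESeq2), with 3 and 2 without HPV- parental 2, 1 and 1 without HPV+ parental 2, and 1 negative without either HPV- resistant library or HPV+ resistant 1. Protocadherins had 0 and 4 of 50 (0 positive at an unadjusted p under 0.05 and 0 by DESeq2), with 7 negative without HPV- parental 2 or HPV- resistant 1 and 2 without either HPV+ parental library. Of 12 cancer-testis antigen genes 0 were called by edgeR in either direction (0 at an unadjusted p under 0.05 and 0 by DESeq2), and 1 was positive without HPV+ resistant 1.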
